A study of Mus musculus with 8 samples.

Results

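Transcripts of 10 genes of the replicative helicase, its loading onto DNA and its control were followed across erythroblasts and progenitors of mouse bone marrow. These are the helicase subunit genes Mcm2, Mcm3, Mcm4, Mcm5, Mcm6 and Mcm7, the loading factor genes Cdc6 and Cdt1, the inhibitor gene Gmnn, and Mcm10. They were chosen by symbol, and 10 of 10 were found among the 23337 genes of the count table and had enough reads to be tested. RNA sequencing was done on 8 libraries of C57BL/6 mice aged 4 months, all of which carry the activated kinase allele JAK2V617F on 1 chromosome (JAK2V617F/+). Mice were labelled Plek2+/+ or Plek2-/-, where Plek2 encodes pleckstrin-2, a phosphoinositide-binding protein of erythroid cells that acts downstream of JAK2. From each genotype, TER119+ erythroblasts, which are red cell precursors that still have a nucleus, and c-Kit+ cells of the lineage-negative fraction (stem and progenitor cells, called progenitors below) were purified. The 4 groups of 2 libraries are named as in the labels: ERY-VF and ERY-DKO for erythroblasts of the Plek2+/+ and the Plek2-/- label, and HSPC-VF and HSPC-DKO for progenitors, where DKO gives the label and not a measured loss. No group has a normal Jak2 gene, and the labels do not say whether the paired libraries are separate mice, so p-values measure the spread between these libraries, which may be technical.

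A replication origin is licensed before S phase, when the origin recognition complex, Cdc6 and Cdt1 place pairs of Mcm2 to Mcm7 rings around the DNA. Geminin, the product of Gmnn, binds Cdt1 and blocks further loading once replication has begun, and Mcm10 helps to turn the loaded rings into active helicases. Early erythroblasts divide rapidly while they begin to make hemoglobin, and late erythroblasts leave the cell cycle.

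Library totals ran from 16038035 to 23521726 counts, so that a gene with no reads could still be present at up to 3 counts, or 0.128 to 0.187 CPM (counts-per-million). The 10 genes together took 0.342% to 0.395% of counts in erythroblasts and 0.248% to 0.302% in progenitors. Erythroblast markers summed to 44091 to 48324 CPM in erythroblasts and 1028 to 1140 CPM in progenitors, and progenitor markers to 520 to 705 and 3380 to 4586 CPM, so each list was higher in its own population. Markers of other cells also differed between populations. Of 10 monocyte and macrophage markers, 8 were called higher and 2 lower in erythroblasts in each label, and they summed to 1217 to 1409.9 CPM in erythroblasts and 362 to 430.0 CPM in progenitors. Neutrophil markers were called higher in erythroblasts in 10 of 10 in Plek2+/+ and lower in 10 of 10 in the libraries labelled Plek2-/-, and B cell markers lower in 8 and 10 of 10. The part of these cells in the population differences of licensing genes was not tested. Plek2 itself was read at 83.6 and 94.8 CPM in ERY-VF and 36.8 and 40.3 CPM in ERY-DKO. In progenitors it went against the label, at 1.81 and 0.940 CPM in HSPC-VF and 6.71 and 7.35 CPM in HSPC-DKO. The pattern of sex-linked genes followed the genotype label in 8 of 8 libraries, so sex and label cannot be told apart.

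Sequence upstream of the start was looked up because E2F factors, which drive transcription at entry into S phase, bind words such as TTGGCGC. Promoter windows of 300 bases (250 before to 50 after the start) came from RefSeq on GRCm38.p6 and covered 8 of the 10 genes, Mcm4 and Gmnn not being matched. They were searched on both strands for TTGGCGC, then for TTCCCGC, then for TTCGCGC and last for TTGCCGC, and these words can overlap one another. At least 1 of these words stood in the windows of 6 of 8 genes (Mcm3, Mcm5, Mcm6, Mcm7, Cdc6 and Cdt1), against 9.57% of the 32851 windows searched (27025 genes). The 8 genes had 9 windows, and a gene was counted if any of its windows held a word. Counts of genes and shares of windows are therefore not strictly alike. In the last 200 bases before the start a word stood in 4 of 8 genes, against 6.79% of windows. For Cdc6 that stretch overlaps an annotated Cdc6 exon, as its RefSeq start (98908151) lies inside the GENCODE gene model (from 98907801). The stretch before the Mcm7 start at 138171883 overlaps exons of Ap4m1 and Mcm7. The word CCAAT, on either strand, stood in the windows of 6 of 8 genes, against 37.4% of windows. The upstream sequences of Mcm2, Mcm5 and Mcm6 are shown because these subunits differed in such words and in the population contrast given below. Capitals mark the E2F words.
Mcm2, chr6:88898781-88898980, minus strand: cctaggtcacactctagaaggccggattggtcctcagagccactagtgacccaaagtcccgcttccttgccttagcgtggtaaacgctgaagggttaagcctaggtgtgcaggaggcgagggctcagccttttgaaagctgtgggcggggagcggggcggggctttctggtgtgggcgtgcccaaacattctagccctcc
Mcm5, chr8:75109309-75109508, plus strand: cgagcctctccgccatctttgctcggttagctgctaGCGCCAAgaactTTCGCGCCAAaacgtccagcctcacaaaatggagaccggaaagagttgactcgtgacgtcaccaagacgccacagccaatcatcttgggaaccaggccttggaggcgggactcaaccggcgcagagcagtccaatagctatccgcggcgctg
Mcm6, chr1:128359706-128359905, minus strand: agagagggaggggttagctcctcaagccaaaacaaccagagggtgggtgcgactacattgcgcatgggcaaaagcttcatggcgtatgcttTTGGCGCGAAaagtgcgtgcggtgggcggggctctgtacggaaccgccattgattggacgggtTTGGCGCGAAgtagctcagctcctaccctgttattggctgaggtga
Mcm5 held 3 words, which begin at positions -164, -152 and -149 from the RefSeq start. Mcm6 held 4, in overlapping pairs that begin at -109 and -106 and again at -46 and -43. These RefSeq starts (75109509 for Mcm5 and 128359705 for Mcm6) differ from those of the GENCODE gene models (75109569 and 128359664). Mcm2 and Mcm10 held none of the 4 words in their windows. A match describes letters and does not show binding.

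The first question was how the licensing genes differ between erythroblasts and progenitors. With libraries scaled by TMM (trimmed mean of M-values), 9 of the 10 genes were called higher in Plek2+/+ erythroblasts than in HSPC-VF. In the libraries labelled Plek2-/- 10 of 10 were called higher. Cdc6 differed most, at 4.52-fold in Plek2+/+ and 5.31-fold in the libraries labelled Plek2-/-, and the helicase genes rose by 1.65-fold (Mcm3) to 2.69-fold (Mcm2) in Plek2+/+, where Mcm3 and Mcm6 turned negative with library sizes alone. Cdt1 differed least, at 1.15-fold in Plek2+/+, where it did not pass the test and turned negative with library sizes alone. Calls are at an adjusted p below 0.05 by edgeR's quasi-likelihood test with Benjamini-Hochberg adjustment. Of 13365 genes tested, 36% were called higher in erythroblasts in Plek2+/+ and 37.5% in the libraries labelled Plek2-/-. Both erythroblast libraries stood above both progenitor libraries for 10 of 10 licensing genes in each label with TMM, beside 42.6% and 42.2% of all genes. In bulk RNA, more cells in cycle and more RNA per cell cannot be told apart.

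This contrast depends on the scaling. TMM factors were 0.738 to 0.772 in erythroblasts and 1.30 to 1.33 in progenitors. The top 10 genes of a library took 14.3% to 15.3% of counts in erythroblasts and 7.02% to 8.42% in progenitors. Their part in the difference of the factors was not tested. With library sizes alone, the median log2 fold change of all genes moved from -0.058 to -0.87 in Plek2+/+ and from -0.070 to -0.86 in the libraries labelled Plek2-/-. The share of calls that were higher moved with it, from 48.8% to 18.7% and from 48.9% to 20.5%. With library sizes alone 6 of the 10 licensing genes were called higher and 1, Cdt1, lower in Plek2+/+. In the libraries labelled Plek2-/- 9 were called higher. Of all 13365 genes tested, 11282 and 11264 were called under this scaling, and 18.7% and 20.5% of those calls were higher. Relative to the median of all genes, the median of the 10 licensing genes was 1.12 in Plek2+/+ under either scaling. In the libraries labelled Plek2-/- it was 1.42 under either. Scaling shifts the log2 fold changes of all genes by nearly the same amount, so this agreement was fixed in advance. Values below are TMM-scaled CPM, and genes whose sign turns with library sizes alone are named.

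Among the helicase genes, Mcm2 (chr6:88883474-88898780 on GRCm38), whose product helps to close the ring and binds histones, was read at 781 and 912 CPM in ERY-VF, 897 and 924 in ERY-DKO, 309 and 321 in HSPC-VF, and 302 and 276 in HSPC-DKO. Mcm3 (chr1:20802968-20820312), whose product joins the ring to the loading machinery, was at 529.9 and 578, 624 and 617, 331 and 342, and 297 and 281 CPM in the same order of groups and libraries. The lowest erythroblast library stood above the highest progenitor library for both genes, but by different margins. The log2 fold change of Mcm2 was 1.43 (SE 0.095) in Plek2+/+ and 1.66 (SE 0.095) in the libraries labelled Plek2-/-, with edgeR adjusted p of 1.89e-08 and 4.08e-09. That of Mcm3 was 0.72 (SE 0.081) and 1.10 (SE 0.081), with edgeR adjusted p of 3.18e-06 and 4.39e-08. With library sizes alone Mcm3 turned to -0.097 in Plek2+/+ (edgeR adjusted p = 0.231).

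Mcm4, Mcm6 and Mcm7 encode the core of the ring, which can unwind DNA by itself. Mcm4 was read at 454 and 505 CPM in ERY-VF, 525 and 543 in ERY-DKO, 219 and 224 in HSPC-VF, and 200.2 and 201 in HSPC-DKO. Mcm6 was at 819 and 903, 944 and 1030.4, 505 and 522, and 482 and 428 CPM in that order, and Mcm7 at 442 and 489.6, 468 and 481, 199 and 203, and 177 and 171 CPM. All 3 were separated between populations in these libraries. Mcm4 differed by log2 1.11 and 1.41 and Mcm7 by 1.21 and 1.45 in Plek2+/+ and in the libraries labelled Plek2-/-. Mcm6 differed by 0.75 and 1.12, and with library sizes alone it turned to -0.071 in Plek2+/+ (edgeR adjusted p = 0.453). Exons of Mcm7 share 321 bases (7.25% of its exon bases) with Ap4m1 and 64 with Cops6 on the opposite strand, and 84 and 88 bases with the microRNA genes Mir25 and Mir93 on its own strand. The strand setting of the counting is not given in the sources used here, so reads from those bases cannot be told apart. No other licensing gene shares exon bases in this annotation (GENCODE vM21).

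Mcm5, which forms the gate of the ring with Mcm2, was read at 727 and 785 CPM in ERY-VF, 826 and 816 in ERY-DKO, 372 and 389.9 in HSPC-VF, and 359.6 and 316 in HSPC-DKO. Its log2 fold change was 0.99 (SE 0.089) and 1.28 (SE 0.090), and with library sizes alone 0.17 in Plek2+/+, where the call was lost (edgeR adjusted p = 0.0703). Mcm10, at 173 and 182, 202 and 200.1, 84.1 and 91.5, and 83.4 and 82.4 CPM in that order, differed by 1.01 (SE 0.075) and 1.28 (SE 0.075).

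**Figure D1:**
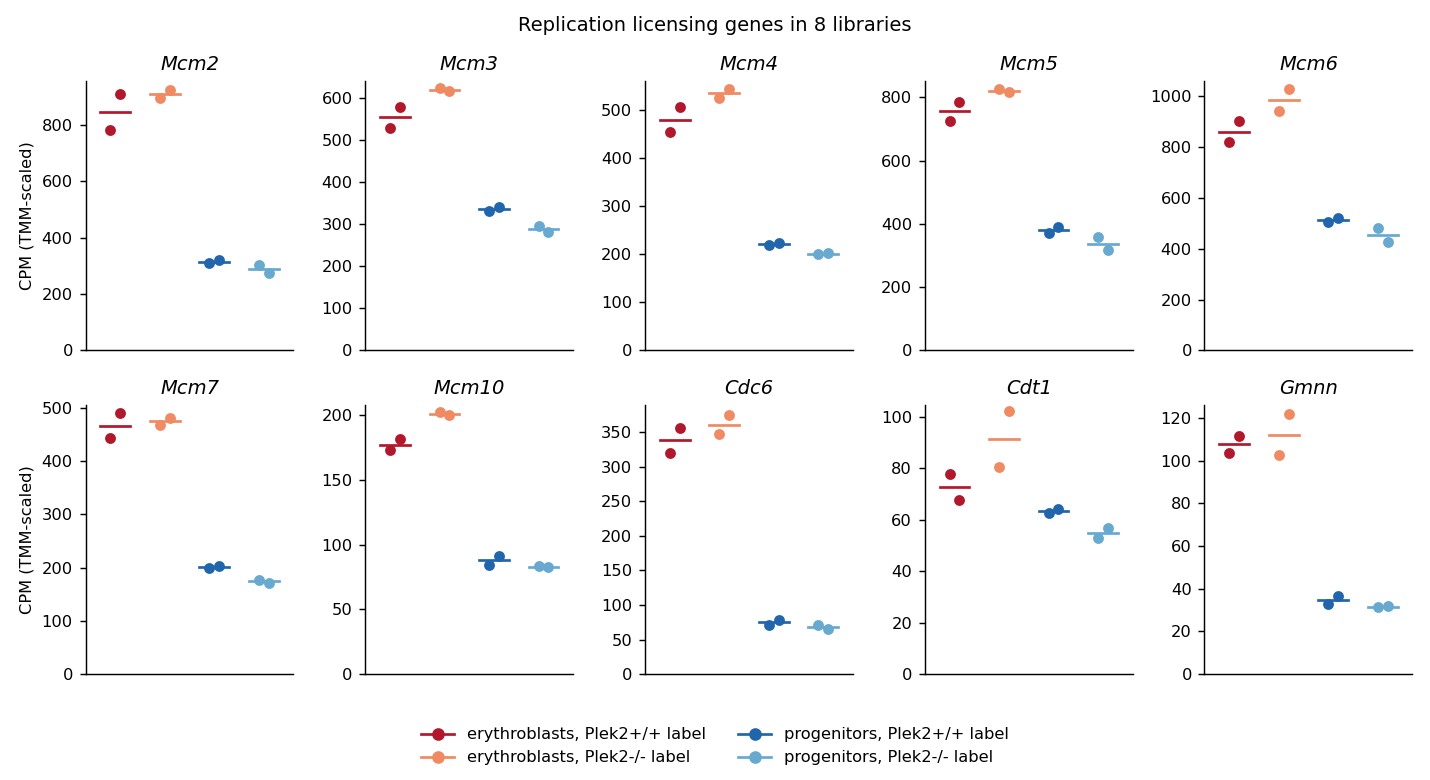
TMM-scaled CPM of the 10 licensing genes in each library; points are libraries and bars are means of 2, with a separate axis from 0 for each gene. Erythroblast points lie above progenitor points in each panel under this scaling, with the narrowest gap for Cdt1 (67.5 against 64.1 CPM); on library totals the points of Mcm3, Mcm6 and Cdt1 overlap.

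The loading factors differed in size of change. Cdc6 (chr11:98907801-98923940), the ATPase that recruits the helicase to the origin complex, was read at 320.3 and 357 CPM in ERY-VF, 348 and 374 in ERY-DKO, 70.6 and 78.8 in HSPC-VF, and 71.4 and 64.8 in HSPC-DKO. Cdt1 (chr8:122568015-122573554), which escorts the helicase to the origin, was at 77.9 and 67.5, 80.4 and 102, 62.5 and 64.1, and 52.7 and 56.6 CPM in that order. Cdc6 stood several times higher in each erythroblast library, while the Cdt1 values of the Plek2+/+ groups nearly met. Cdc6 differed by log2 2.18 (SE 0.093) and 2.41 (SE 0.094), with edgeR adjusted p of 2.12e-10 and 8.14e-11. Cdt1 differed by 0.20 (SE 0.11, edgeR adjusted p = 0.119) in Plek2+/+ and by 0.74 (SE 0.11, edgeR adjusted p = 4.25e-05) in the libraries labelled Plek2-/-. The Plek2+/+ value was called without ERY-VF library 2 (0.35, edgeR adjusted p = 0.0453) and in a fit of the 4 Plek2+/+ libraries alone (0.20, edgeR adjusted p = 0.0263). With library sizes alone Cdt1 turned to -0.61 in Plek2+/+ (edgeR adjusted p = 0.000276), a call in the other direction, and to -0.045 in the libraries labelled Plek2-/- (edgeR adjusted p = 0.722). The direction of Cdt1 between populations therefore rests on the scaling.

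Gmnn (chr13:24751845-24761923), which encodes the Cdt1 inhibitor geminin, was read at 104 and 112 CPM in ERY-VF, 103 and 122 in ERY-DKO, 32.9 and 36.7 in HSPC-VF, and 31.3 and 31.9 in HSPC-DKO. It was 3.09-fold and 3.55-fold higher in erythroblasts (log2 1.63, SE 0.099, and 1.83, SE 0.10), with edgeR adjusted p of 7.63e-09 and 2.32e-09. Unlike Cdt1, Gmnn kept its direction and its calls with library sizes alone.

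**Figure D2:**
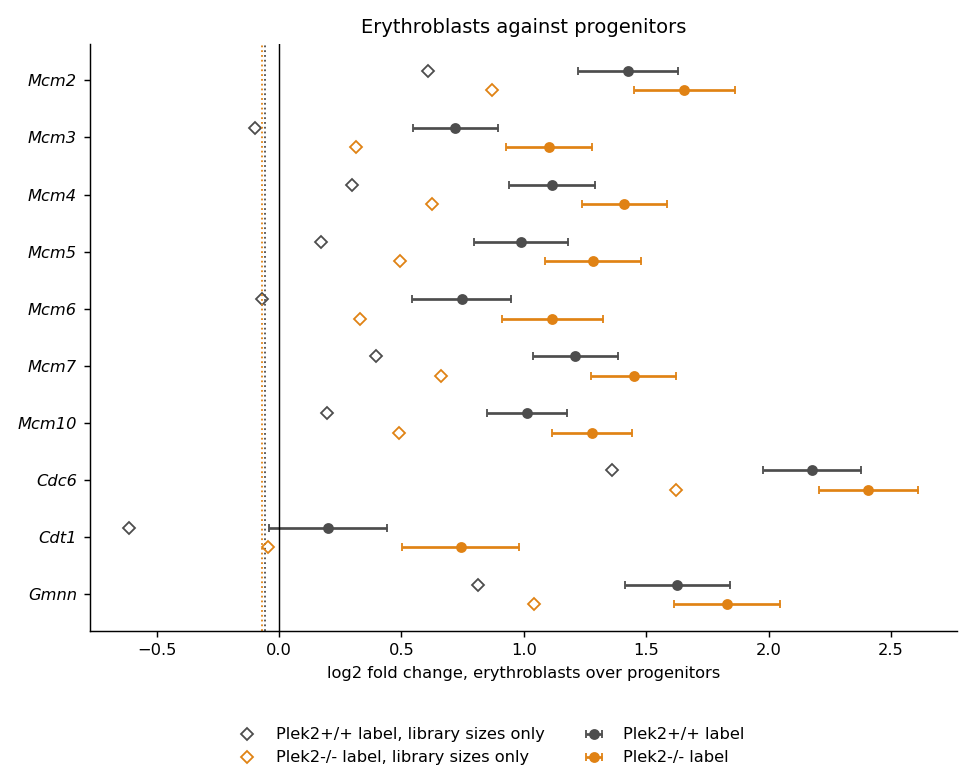
Log2 fold change of erythroblasts over progenitors for each gene by genotype label; filled points with 95% intervals are TMM-scaled, open diamonds use library sizes alone, and dotted lines mark the TMM medians of all genes (-0.058 and -0.070). Filled points run from 0.20 (Cdt1) to 2.41 (Cdc6), and the diamonds of Mcm3, Mcm6 and Cdt1 in Plek2+/+ and of Cdt1 in the libraries labelled Plek2-/- fall below 0.

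Ratios of reads within a library do not depend on how libraries are scaled, and 4 such ratios were compared, 4 erythroblast against 4 progenitor libraries with both labels together. The ratio of Cdt1 to Gmnn reads was 0.604 to 0.839 in erythroblasts and 1.68 to 1.90 in progenitors. The ratio of Cdc6 to Cdt1 reads was 3.67 to 5.29 in erythroblasts and 1.13 to 1.36 in progenitors. Relative to Cdt1, both Gmnn and Cdc6 were higher in each erythroblast library than in any progenitor library. Cdc6 against the mean log2 of Mcm2 to Mcm7 was -0.99 to -0.91 in erythroblasts and -2.12 to -2.0 in progenitors. The ratio of Mcm2 to Mcm3 reads was 1.44 to 1.58 in erythroblasts and 0.932 to 1.02 in progenitors. Each of the 4 separated the populations, with p = 0.0286 by a two-sided exact permutation test (adjusted p = 0.0286 over the 4), the smallest p that 4 against 4 allows. The pairs were chosen with results of these data known, so the p-value does not test their separation. Adjustment over the 4 does not correct for that choice. Single genes, 2 against 2 libraries with TMM, did not overlap in either direction for 89.2% of all genes in Plek2+/+. In the libraries labelled Plek2-/- the share was 87.9%.

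**Figure D3:**
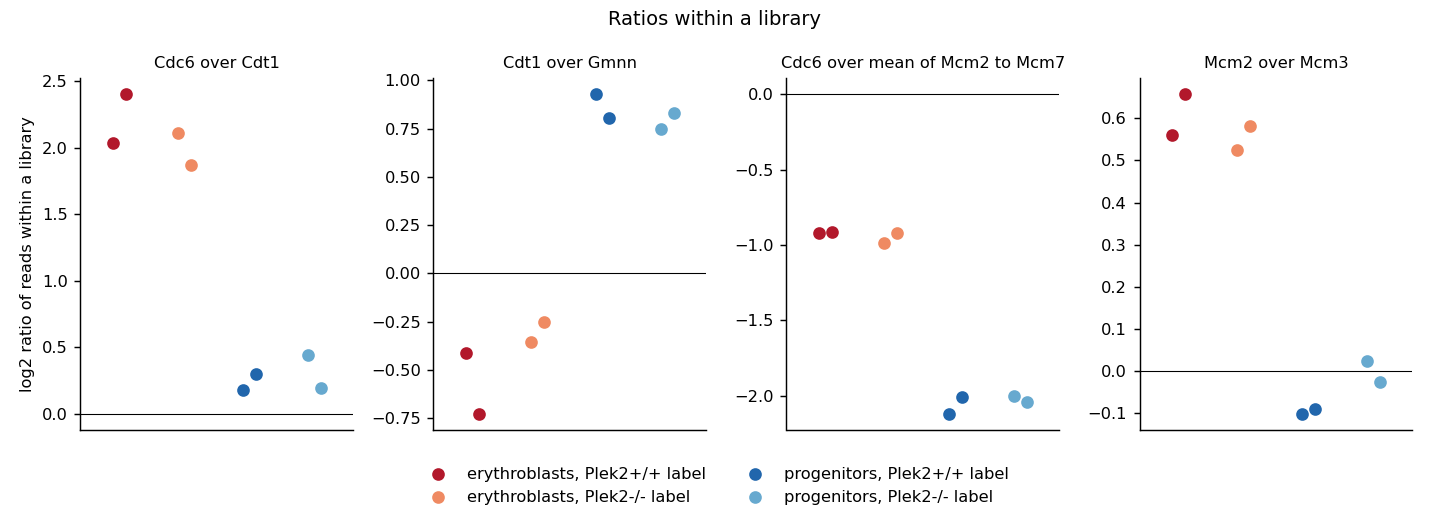
Log2 ratio of reads of paired licensing genes within each of the 8 libraries; each point is 1 library, and each panel has its own axis. Erythroblast and progenitor points do not overlap in any of the 4 panels, and Cdt1 over Gmnn changes sign, from -0.73 to -0.25 in erythroblasts to 0.75 to 0.93 in progenitors.

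The makeup of the helicase transcripts also differed between populations. Of all Mcm2 to Mcm7 reads in a library, Mcm2 took 21.1% ± 0.479 (SD, n = 4 libraries of both labels) in erythroblasts and 16.3% ± 0.326 in progenitors. Mcm6 took 22.2% ± 0.777 and 26.1% ± 0.393, and Mcm3 14.1% ± 0.303 and 16.8% ± 0.365. Of helicase reads, a larger share was thus from Mcm2 and a smaller share from Mcm3 and Mcm6 in erythroblasts. The shares of Mcm4 (12.2% and 11.4%) and Mcm7 (11.3% and 10.1%) were slightly higher in erythroblasts, and those of Mcm5 (19.0% and 19.3%) overlapped. Over the 6 shares, the two-sided exact permutation test gave an adjusted p of 0.0343 for 5 and 0.229 for Mcm5. The 6 shares sum to the whole, so they are not independent.

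Between genes, levels were compared as CPM per kilobase of exons (the union of annotated exons), as means ± SD over the 4 libraries of a population. In erythroblasts Mcm6 (198 ± 18.8) and Mcm5 (198 ± 11.2) did not differ beyond their spread, followed by Mcm3 (157 ± 11.5), Mcm4 (141 ± 10.6), Mcm2 (126 ± 9.48) and Mcm7 (106 ± 4.64). The loading and control genes were lower, with Gmnn at 75.1 ± 6.00, Cdc6 at 66.9 ± 4.32, Cdt1 at 26.1 ± 4.64 and Mcm10 at 24.6 ± 1.85 CPM per kilobase. In progenitors the helicase genes kept this order, from 104 ± 8.74 (Mcm6) to 42.4 ± 3.65 (Mcm7), while Cdt1 (18.8 ± 1.68) stood above Cdc6 (13.7 ± 1.10). The place of Mcm2 rests on the length used. Its union of exons is 6956 bases and its longest protein-coding transcript 3371 bases, and with the latter it moved from place 5 to place 1 in erythroblasts, at 261 CPM per kilobase.

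The study's own question concerns loss of Plek2, and between its labels no licensing gene passed the test with all libraries. In erythroblasts, fitted values of the 10 genes were 0.036 (Mcm7) to 0.34 (Cdt1) on the log2 scale, positive in 10 of 10 in the libraries labelled Plek2-/-, and in progenitors -0.18 (Mcm3) to -0.042 (Mcm10), negative in 10 of 10. With TMM the mean levels of 10 of 10 genes stood in 1 order, ERY-DKO, then ERY-VF, HSPC-VF and HSPC-DKO, beside 17.5% of all 13365 genes; with library sizes alone 7 of 10 did, beside 7.45%, as Mcm3, Mcm6 and Cdt1 were then lower in ERY-VF than in HSPC-VF. Neighbours in this order that differ by label were not called for any of the genes, and neighbours that differ by population were called for each but Cdt1.

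In erythroblasts edgeR called 0 of 10 genes, beside 2.84% of 12241 genes tested, and DESeq2 and limma-voom also called 0. At an unadjusted p below 0.05 there were 2, Cdt1 and Mcm10, beside 14.7% of all genes. Both libraries labelled Plek2-/- stood above both Plek2+/+ libraries for 6 genes (Mcm3, Mcm4, Mcm5, Mcm6, Mcm10 and Cdt1), beside 21.5% of all genes. The median over the 10 was 0.15, beside 0.011 over all genes, of which 52.5% were positive, and it was 0.084 without ERY-VF library 1. Cdt1 had the widest difference, 1.27-fold (95% interval 1.05 to 1.52, edgeR adjusted p = 0.19), and its libraries labelled Plek2-/- lay apart, at 80.4 and 102 CPM. Without ERY-DKO library 1 it was called (log2 0.49, edgeR adjusted p = 0.00547), as it was with no low-count filter (0.34, edgeR adjusted p = 0.0291), whereas without ERY-DKO library 2 it was 0.15 (edgeR adjusted p = 0.704). The sign of Mcm7 turned without ERY-VF library 1 (-0.034), and that of Gmnn without ERY-DKO library 2 (-0.067).

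In progenitors edgeR called 0 of 10 genes, beside 4.91% of 13168 genes tested, and DESeq2 and limma-voom also called 0. At an unadjusted p below 0.05 there were 3 (Mcm3, Mcm7 and Cdt1), beside 17.3% of all genes. Both libraries labelled Plek2-/- stood below both Plek2+/+ libraries for 9 genes, Cdc6 being the exception, beside 33.2% of all genes. The median over the 10 was -0.12, beside -0.010 over all genes, of which 47.3% were positive, and it was -0.075 without HSPC-DKO library 2. The differences were small: Mcm3 was 1.13-fold lower (log2 -0.18, SE 0.064, edgeR adjusted p = 0.201) and Mcm7 1.13-fold lower (log2 -0.17, SE 0.060, edgeR adjusted p = 0.193). Without HSPC-DKO library 1, Mcm3, Mcm5, Mcm6 and Mcm7 were called lower, at -0.23 to -0.20 with edgeR adjusted p of 0.00367 to 0.00973. Without HSPC-DKO library 2, Cdt1 was called lower (-0.22, edgeR adjusted p = 0.0264). Mcm10 turned to 0.020 without HSPC-VF library 2. The 10 genes were read in the same 4 libraries of a population, so a shared sign is not 10 separate observations.

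**Figure D4:**
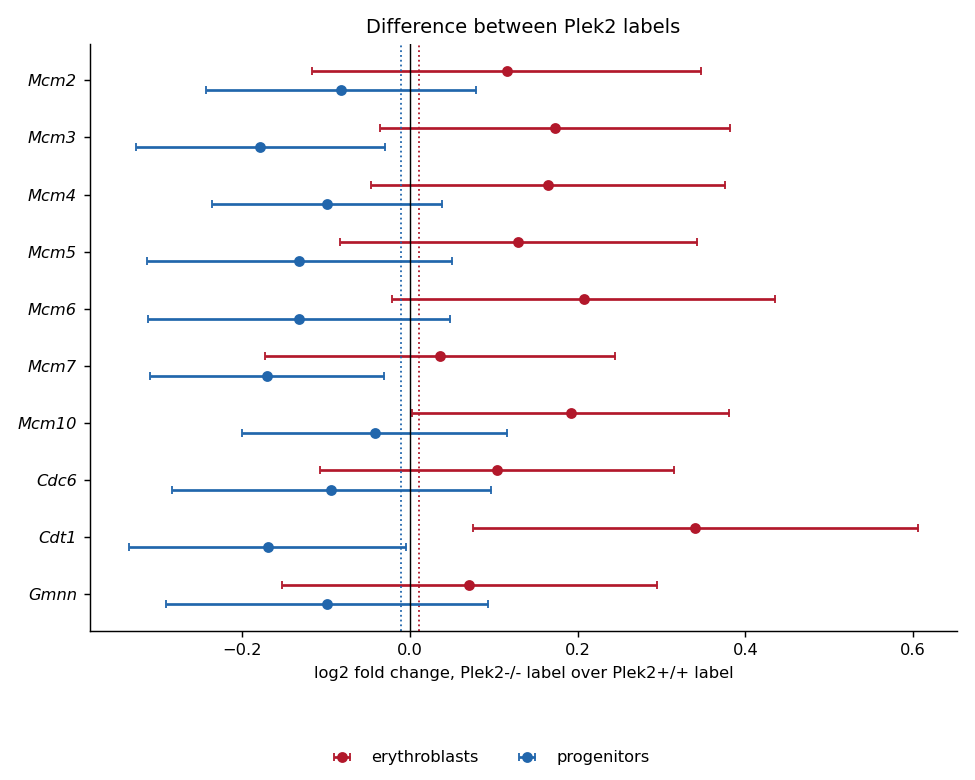
Log2 fold change of libraries labelled Plek2-/- over Plek2+/+ with 95% intervals in erythroblasts and progenitors; dotted lines mark the medians of all genes (0.011 and -0.010). Points lie above 0 for 10 of 10 genes in erythroblasts and below 0 for 10 of 10 in progenitors with all libraries, and 0 were called; leaving out 1 library turned the sign of Mcm7 and Gmnn in erythroblasts and of Mcm10 in progenitors.

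The difference of the label effect between populations was tested in 1 fit of all 8 libraries. It was positive for 10 of 10 genes, 0.20 (Gmnn) to 0.54 (Cdt1) on the log2 scale with a median of 0.28, beside 0.038 over all genes, of which 55.3% were positive. Without ERY-VF library 1 the median was 0.16 and the lowest value 0.056, and without ERY-DKO library 2 the lowest was 0.0089 (Gmnn). EdgeR called 0 of 10, beside 5.55% of 13365 genes, and 6 had an unadjusted p below 0.05, beside 18.2%. The closest were Cdt1 (0.54, SE 0.16, edgeR adjusted p = 0.0694) and Mcm3 (0.38, SE 0.11, edgeR adjusted p = 0.0767). Mcm3 crossed the threshold with DESeq2 (adjusted p = 0.0489), with limma-voom (adjusted p = 0.0425) and in edgeR with library sizes alone (adjusted p = 0.0376). Cdt1 crossed it in edgeR with no low-count filter (adjusted p = 0.00426) and without ERY-DKO library 1 (adjusted p = 0.00436), and without ERY-DKO library 2 it was 0.29 (edgeR adjusted p = 0.333).

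Neutrophil genes differed by label in both populations, with signs opposite to the fitted values of the licensing genes. The 10 neutrophil markers summed to 18925 to 21838 CPM in ERY-VF and 13239 to 14632 in ERY-DKO, where 7 of 10 were called lower by edgeR. In progenitors they summed to 4269 to 7186 CPM in HSPC-VF and 18285 to 24640 in HSPC-DKO, where 10 of 10 were called higher. B cell markers summed to 161 to 193 CPM in ERY-VF and 80.7 to 113 in ERY-DKO, and to 272 to 352 over all progenitor libraries. Progenitor markers summed to 679 to 705 CPM in ERY-VF and 520.0 to 529.9 in ERY-DKO (1 of 10 called lower, median log2 -0.33). Their sums in progenitors were 4168 to 4586 CPM in HSPC-VF and 3380 to 4071 in HSPC-DKO (0 of 10 called, median log2 -0.11). Erythroblast markers in progenitors had a median log2 of 0.29, with 0 called. Their sums overlapped, at 1042 to 1111 CPM in HSPC-VF and 1028 to 1140 in HSPC-DKO. Monocyte and macrophage markers there had a median log2 of 0.47, with 1 called, that 1 lower. Their sums went the other way, at 397 to 430.0 CPM in HSPC-VF and 362 to 369 in HSPC-DKO. No marker of these lists was at 0 in any library. The part of such cells in the label differences of licensing genes was not tested.

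The rest of the replication pathway was followed through 8 lists of genes, with TMM scaling. Counts of genes higher or lower are of calls, and counts with library sizes alone stand beside them. Of the 6 origin recognition genes, 5 were higher in Plek2+/+ erythroblasts than in progenitors and 6 of 6 in the libraries labelled Plek2-/-, whereas with library sizes alone 4 were higher and 2 lower in each. Orc1, the ATPase subunit whose level cycles, differed most (6.75-fold and 8.45-fold), and Orc6 was 3.83-fold and 4.43-fold higher, while Orc3 was not called in Plek2+/+ (log2 0.17, edgeR adjusted p = 0.0567). All 12 origin firing genes tested were higher in both labels, and with library sizes alone 8 were higher and 2 lower in each. They include Donson (4.99-fold and 5.58-fold) and Dbf4, the activator of the Cdc7 kinase (3.34-fold and 3.09-fold). Gins4, a subunit of the active helicase, was 2.75-fold and 3.09-fold higher. The medians were 1.24 and 1.49 for origin recognition and 1.16 and 1.45 for firing, beside 1.06 and 1.35 for the licensing genes.

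Of 30 fork and DNA synthesis genes, 27 were higher and 1 lower in erythroblasts in each label, with medians of 1.13 and 1.30, and with library sizes alone 17 were higher and 10 lower in Plek2+/+ and 20 and 7 in the other label. Clspn, an adaptor of the replication checkpoint, was 3.35-fold and 4.00-fold higher and Rfc4, a clamp loader subunit, 3.31-fold and 3.72-fold. The gene that fell was Pold4, a small subunit of polymerase delta (log2 -0.87 and -1.14). Nucleotide supply genes split: 5 of 7 were higher in each label (4 with library sizes alone), led by Rrm2 (4.95-fold and 5.63-fold), the regulated subunit of ribonucleotide reductase, and Tyms (3.39-fold and 3.74-fold), thymidylate synthase. Shmt1, a folate enzyme, fell by 2.05 and by 1.81 on the log2 scale.

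Of 15 E2F and G1/S cyclin genes, 12 were higher in Plek2+/+ erythroblasts and 13 in those labelled Plek2-/-, against 7 higher and 4 lower, and 10 and 4, with library sizes alone. E2f2 was higher by log2 3.83 in Plek2+/+ (14.2-fold) and by 3.59 in the libraries labelled Plek2-/-. Ccne1 was 5.69-fold and 6.40-fold higher in that order. Ccne2 was higher by log2 2.67 and 2.72, the latter 6.59-fold. Of 12 genes that control turnover of Cdt1 and Cdc6, 11 were higher in each label (5 with library sizes alone, and 5 and 1 lower), led by Fzr1, an activator of the anaphase-promoting complex (9.14-fold and 8.89-fold), and Fbxo5, an inhibitor of that complex (5.91-fold and 5.67-fold). Cul4b, a scaffold of a ligase that marks Cdt1, was lower in Plek2+/+ (log2 -0.38, edgeR adjusted p = 0.000547). The 18 mitosis genes were each higher in both labels (17 with library sizes alone), with medians of 1.99 and 1.92, above those of the licensing genes, and included Birc5 (5.99-fold and 6.15-fold) and Nusap1 (6.92-fold and 6.38-fold).

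**Figure D5:**
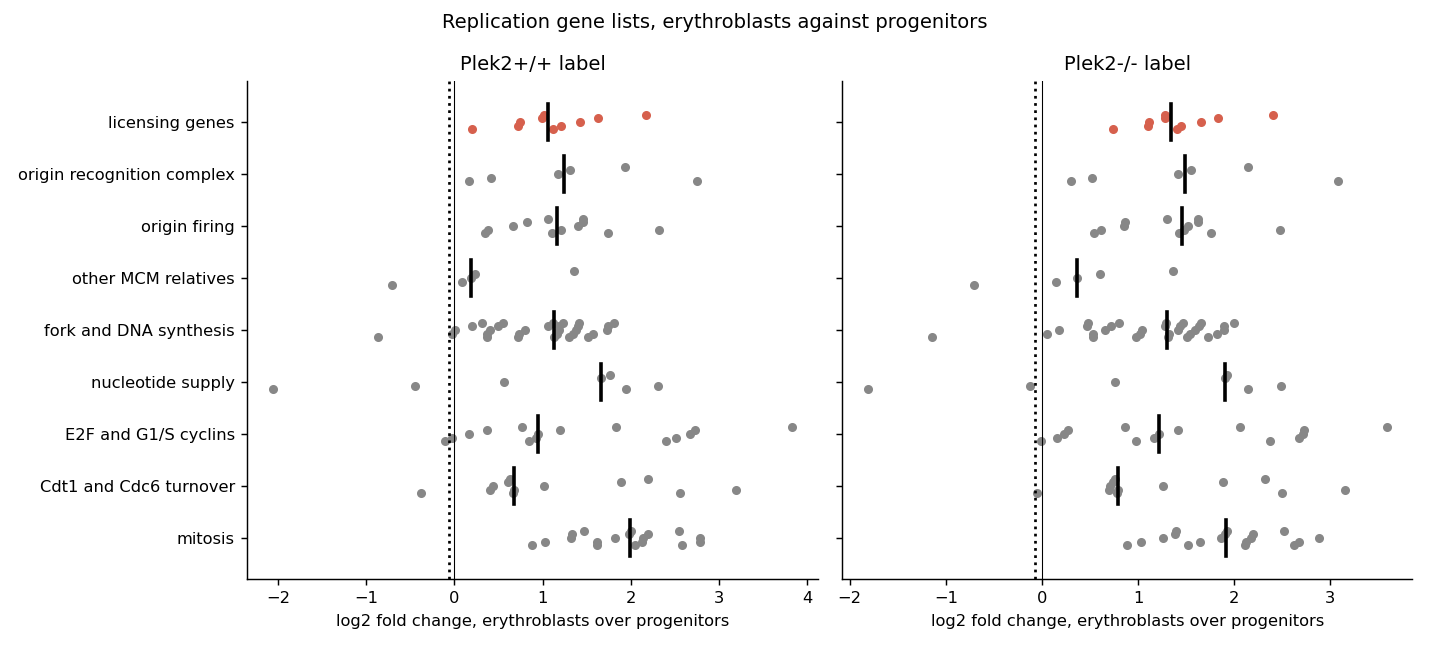
Log2 fold change of erythroblasts over progenitors for each gene of the licensing set (red) and of 8 other lists, by label; points are genes, black bars list medians and dotted lines the medians of all genes (-0.058 and -0.070). Values are TMM-scaled, and with library sizes alone the medians of all genes move to -0.87 and -0.86. The mitosis medians lie at 1.99 and 1.92, beside 1.06 and 1.35 for licensing genes.

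Between labels, edgeR called 0 genes of these 8 lists in erythroblasts, in progenitors or for the difference between populations. At an unadjusted p below 0.05, fork genes held 0 of 30 in erythroblasts and 5 of 30 in progenitors, mitosis genes 0 of 18 and 1 of 18, and origin recognition genes 3 of 6 and 0 of 6, beside 14.7% and 17.3% of all genes. In progenitors fork genes were positive in 3 of 30, with a median of -0.11, and mitosis genes in 14 of 18, with a median of 0.046. Origin recognition genes were positive in 4 of 6 (median 0.013), firing genes in 2 of 12 (-0.067) and licensing genes in 0 of 10 (-0.12), beside 47.3% of all genes. In erythroblasts origin recognition genes were positive in 6 of 6 (median 0.19), fork genes in 27 of 30 (0.079) and firing genes in 10 of 12 (0.088). Licensing genes were positive there in 10 of 10 (0.15) and mitosis genes in 11 of 18 (0.020), beside 52.5% of all genes.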

How the data were processed

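Raw read counts per gene were deposited by the authors for 8 libraries (23337 genes by symbol). The authors' second table, of normalized signal, came out as those counts divided by 1 factor per library (relative difference at most 9.72e-15) and was not tested. Per the submitters' processing notes, the tools were STAR 2.5.2a, cutadapt 1.13, DESeq2 1.14.1 and HTSeq 0.6.1pl, on mm10. What each did, with which annotation and strand setting, is not given in the sources used here.

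Effects of the genotype label were fitted separately in erythroblasts and progenitors, and population contrasts and the difference of label effects in 1 fit of all 8 libraries, with edgeR 4.0.16 in R 4.3.3 (TMM, filterByExpr, quasi-likelihood test, Benjamini-Hochberg adjusted p below 0.05 over all genes tested). The biological coefficient of variation was 8.12%, 7.17% and 7.62%. SE is the absolute log2 fold change over the root of F, and intervals are 95%. CPM is scaled by TMM over all 8 libraries, except for Plek2 (library totals). Chi-square over degrees of freedom between replicates was 5.92 to 16.5, so no library was held under both numbers of a group. Reads carry no molecular identifiers, and the limit of 3 counts covers counting error alone. The test was checked on simulated data, where the share of false calls was above the nominal level, most so in the Plek2-/- population contrast and the difference of label effects.

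Alternatives were DESeq2 1.42.0 size factors or test, limma-voom (limma 3.58.1), library sizes alone, no filter, a replicate block, other sets of libraries, each library left out, and other gene lengths. A crossed block, the longest protein-coding transcript and library sizes alone for the lists and the order of groups were added after seeing the data. Gene models are GENCODE vM21 on GRCm38, which is mm10.

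The genes and lists were chosen with earlier results of these data known. Named genes are the 10 licensing genes in each comparison and, from each other list, the 2 calls of lowest adjusted p or, with none called, the most abundant one. Orc3, Pold4, Shmt1, Cul4b, Mcm8, Mcm9 and Mcm3ap were named after their values were seen. Lists are origin recognition (Orc1 to Orc6); firing (Cdc45, Gins1 to Gins4, Cdc7, Dbf4, Ticrr, Mtbp, Topbp1, Recql4, Donson); relatives (Mcm8, Mcm9, Mcmbp, Mcm3ap, Mcmdc2); fork (30 genes of polymerases, clamp, clamp loader, RPA, ligase and chromatin assembly); nucleotide supply (Rrm1, Rrm2, Tyms, Tk1, Dut, Dctpp1, Shmt1); E2F and G1/S cyclins; turnover (Dtl, Ddb1, cullins, Skp2, Skp1a, Rbx1, Fzr1, Fbxo5, Ccnf, Usp37); mitosis; and 10 markers for each cell type, of which 9 were matched for erythroblasts. An item of the lists is not reported here.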

Additional observations from a re-analysis of the deposited data

How the results depend on the processing

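Over all genes, edgeR called 348 in erythroblasts by label, 230 with library sizes alone and 845 with no low-count filter, where Cdt1 made 1 licensing gene called in place of 0. It called 646 in progenitors by label and 1315 with no filter. For the difference of label effects it called 742, and 1215 with no filter; 1 licensing gene was called with library sizes alone, with the DESeq2 test, with limma-voom (Mcm3 in these) and with no filter (Cdt1). The replicate block in erythroblasts and the crossed block in progenitors also moved these counts further and are given below. The remaining alternatives that kept all libraries stayed within 1.5 times for these counts. Leaving out each library gave 25 to 995 genes and 0 to 1 licensing genes by label in erythroblasts, 239 to 2649 and 0 to 4 in progenitors, 401 to 1175 and 0 to 1 for the difference, 8630 to 9014 and 9 to 10 for the populations in Plek2+/+, and 9336 to 9856 and 10 in the libraries labelled Plek2-/-. Such a fit assumes that a lone library varies like the other group.

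Signs turned with library sizes alone for Mcm3 (-0.097), Mcm6 (-0.071) and Cdt1 (-0.61) in the Plek2+/+ population contrast and for Cdt1 (-0.045) in the other, and with 1 library left out for Mcm7 (-0.034 to 0.090) and Gmnn (-0.067 to 0.18) in erythroblasts and Mcm10 (-0.098 to 0.020) in progenitors. The cause was not tested. In the lists, library sizes alone gave, as called higher and lower in Plek2+/+ and then in the other label, 4 and 2, 4 and 2 (origin recognition), 8 and 2, 8 and 2 (firing), 1 and 4, 1 and 3 (relatives), 17 and 10, 20 and 7 (fork), 4 and 3, 4 and 2 (nucleotide supply), 7 and 4, 10 and 4 (E2F and cyclins), 5 and 5, 5 and 1 (turnover) and 17 and 0, 17 and 0 (mitosis).

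A replicate block gave 579 genes in erythroblasts and 813 in progenitors by label, with 0 licensing genes called in either. Over the 6 pairs of groups, deviations of same-numbered libraries correlated at -0.122 (HSPC-VF with HSPC-DKO) to 0.183 (ERY-DKO with HSPC-DKO; 8954 genes), and at 0.103 between the erythroblast groups. The labels give no shared source, so the numbers were not taken to pair libraries. With crossed numbers in progenitors the block called 1327 genes and 0 licensing genes.

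With the longest transcript or the longest protein-coding transcript as length, places in erythroblasts became Mcm2 1, Mcm3 4, Mcm4 6, Mcm6 3, Mcm7 5, Mcm10 9 and Cdt1 10, and in progenitors Mcm2 4, Mcm4 6, Mcm7 5, Mcm10 9 and Cdc6 10. With 2 libraries a group, an exact permutation of single values cannot go below p = 0.333, so label effects rest on the fit across genes. Depth did not limit the licensing genes, the lowest of which had 700 counts in a library.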

Other observations

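Relatives of the helicase genes were followed in the population contrast. Of 5 tested, 2 were called higher and 1 lower in Plek2+/+ erythroblasts than in progenitors. In the libraries labelled Plek2-/- 3 were called higher and 1 lower. Mcmbp, whose product binds Mcm proteins outside chromatin, was 1.64-fold and 1.63-fold lower in erythroblasts (edgeR adjusted p = 1.12e-06 and 1.08e-06). Mcm8 and Mcm9, which form a separate helicase used in recombination, were at log2 0.19 (edgeR adjusted p = 0.109) and 0.23 (edgeR adjusted p = 0.0438) in Plek2+/+ and at 0.60 and 0.36 (edgeR adjusted p = 0.000134 and 0.00367) in the libraries labelled Plek2-/-. Mcm3ap, named for its product's binding to Mcm3 but known for messenger RNA export, was not called in either (0.090 and 0.15). Mcmdc2, listed under the symbol 6030422M02Rik, was 2.56-fold and 2.57-fold higher. With library sizes alone 1 of the 5 (Mcmdc2) was called higher in each label, and 4 were called lower in Plek2+/+ and 3 in the other. Mcm8, Mcm9 and Mcm3ap turned negative (-0.62, -0.59 and -0.72 in Plek2+/+). With TMM the median of the 5 was 0.19 and 0.36, beside 1.06 and 1.35 for the licensing genes. No gene of this list was called by label in edgeR.

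Genes outside the lists were ranked by how closely their gene-centred log2 CPM followed the mean of Mcm2 to Mcm7 over the 8 libraries, among 8792 genes with a mean of at least 10 CPM. The 5 nearest were Zscan21 (root mean square difference 0.032), Golm1 (0.037), Psmc3ip (0.039), Ift20 (0.041) and Rad18 (0.045). Within the licensing set, Mcm5 (0.037) and Mcm4 (0.050) lay nearest that mean and Cdc6 (0.56), Cdt1 (0.39) and Gmnn (0.28) farthest, where Mcm2 to Mcm7 are themselves part of the mean. Zscan21 was at 44.1 CPM over erythroblasts and 19.1 over progenitors, and Golm1 at 167 and 72.5. The likeness is over 8 libraries that share 4 groups, and describes these libraries.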
